A study of Homo sapiens with 6 samples.

Results

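The ZNF genes described here were the rows of the ORC1 RNA immunoprecipitation (RIP) table whose symbol is ZNF followed by digits and an optional letter, without pseudogenes, and whose mean over the 3 inputs was at least 100 normalised counts. These criteria gave 272 of the 23013 genes in the table. ZNF genes of any level numbered 388, of which 116 lay under the input minimum. The members were thus selected on their input values, so their input levels are a description, and the ORC1 IP values took no part in the input minimum. The family itself was chosen with earlier results of these data known, so its choice was not independent of the ORC1 IP values. A gene whose inputs are high by chance passes such a minimum more easily, which works towards a lower ORC1 IP relative to input. For this reason the members were read beside all 16513 genes tested and beside the 11210 tested genes with the same input minimum.

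Native RIP-seq was performed on nuclei of untreated, asynchronous HCT116 cells, a human colorectal carcinoma cell line. In RIP-seq, RNA that is recovered together with an antibody-bound protein is sequenced. ORC1 is a subunit of the origin recognition complex, which binds chromatin at future start sites of DNA replication. The 3 inputs were nuclear RNA without antibody and the 3 ORC1 IPs were recovered with an anti-ORC1 antibody, each input and IP being assigned by the labels to RIP replicate 1, 2 or 3. The study describes these as triplicate experiments on the same line, so p-values measure the spread between such experiments. No library from a control antibody was analysed here, so background per gene was not measured. Each value is a sum over a whole culture, in which fewer contributing cells and less RNA per cell cannot be told apart.

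C2H2 zinc finger proteins form a very large class of human DNA binding proteins, in which each finger folds around a zinc ion held by a pair of cysteines and a pair of histidines. Many carry a KRAB domain, which recruits the corepressor TRIM28 and with it the methyltransferase SETDB1 and heterochromatin protein HP1, and silence transposable elements in this way. Others carry a SCAN domain for dimerisation, or neither domain, and some ZNF symbols belong to proteins that work on RNA or in the spindle. The fingers are typically encoded in tandem in a single large exon, and the genes stand in clusters, many of them on chromosome 19.

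Finger coding sequences are shown for the 3 members with the highest and the 3 with the lowest log2 fold change of ORC1 IP over input, because they illustrate how far base composition differs within the family. Each is the first finger in the longest coding sequence that is followed by another finger at a spacing of 28 codons, written 5′ to 3′ on the coding strand over 84 bases, from the first cysteine codon to the codon before the next finger. The capitals mark the 4 codons of the zinc ligands. Sequences and coordinates come from GENCODE v44 on GRCh38.

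The finger of ZNF721 lies at chr4:443717-443800 on the minus strand, that of ZNF107 at chr7:64706620-64706703 on the plus strand and that of ZNF761 at chr19:53455237-53455320 on the plus strand. The finger of ZNF579 lies at chr19:55579421-55579504 on the minus strand, that of ZNF581 at chr19:55644836-55644919 on the plus strand and that of ZNF787 at chr19:56088887-56088970 on the minus strand. Each lies within a coding exon.
ZNF721: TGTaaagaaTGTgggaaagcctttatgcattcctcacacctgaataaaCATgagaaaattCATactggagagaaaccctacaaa
ZNF107: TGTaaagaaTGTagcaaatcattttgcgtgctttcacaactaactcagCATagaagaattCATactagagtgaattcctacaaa
ZNF761: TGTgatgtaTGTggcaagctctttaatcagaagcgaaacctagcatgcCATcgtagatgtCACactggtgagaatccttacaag
ZNF579: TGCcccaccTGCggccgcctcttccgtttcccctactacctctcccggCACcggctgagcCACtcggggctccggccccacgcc
ZNF581: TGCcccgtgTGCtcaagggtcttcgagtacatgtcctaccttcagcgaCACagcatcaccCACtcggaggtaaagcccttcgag
ZNF787: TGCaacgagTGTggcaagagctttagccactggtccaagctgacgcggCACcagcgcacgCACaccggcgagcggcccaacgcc

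The GC content of these fingers was 36.9%, 33.3% and 44.05% in ZNF721, ZNF107 and ZNF761, and 73.8%, 57.1% and 66.7% in ZNF579, ZNF581 and ZNF787. The 3 fingers from the top of the family were thus all less GC-rich than the 3 from the bottom. Over the 215 members with such a finger, its GC content ranged from 27.4% to 78.6% with a median of 44.05%, and in the 10 members called higher, described next, from 28.6% to 50% with a median of 39.9%.

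Across the family, ORC1 IP stood above input more often than below it, but few members passed the test one by one. Of the 272 members, 199 (73.2%) had a positive log2 fold change, against 50.7% of all tested genes and 48.2% of genes with the same input minimum. The median log2 fold change was 0.40 (quartiles -0.03 and 0.95), against 0.01 over all tested genes and -0.04 over genes with the same input minimum. Fold changes are differences of log2(normalised count + 1) between the 3 ORC1 IPs and the 3 inputs. By limma with Benjamini-Hochberg adjustment over all tested genes and an adjusted p under 0.05, 10 members (3.68%) were higher in ORC1 IP, where 2.28% of all tested genes and 2.27% of genes with the same input minimum were. None was lower, where 1.42% of all tested genes and 1.69% of genes with the same input minimum were. At an unadjusted limma p under 0.05, 74 members were higher and 5 lower. Of all 16513 tested genes 2014 were higher and 1561 lower at that p. Of the 11210 with the same input minimum 1362 were higher and 1236 lower. With scaling by total count the members' median was 0.19 and the median over every tested gene -0.19, with 58.5% of members and 40.2% of all tested genes positive.

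All 3 ORC1 IPs were above all 3 inputs in 75 members (27.6%), against 12.7% of all tested genes and 12.1% at the same input minimum. All 3 were below all 3 inputs in 12 members (4.41%), against 13.5% and 15.6%. In the other 185 members the groups overlapped. These counts moved with the scaling and with single libraries. With scaling by total count, 28 members (10.3%) stood above, against 8.19% of genes with the same input minimum, and 18 (6.62%) below, against 17.9%. Leaving out a library makes separate groups easier to reach for every gene. Without input 1, 118 members (43.4%) stood above and 31 (11.4%) below, against 20.3% and 22.8% of genes with the same input minimum. The number below was 24 (8.82%) without ORC1 IP 1 and 21 (7.72%) without ORC1 IP 2, against 19.4% and 24.4%. Without ORC1 IP 2, 104 members (38.2%) stood above, against 28.7%.

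**Figure D1:**
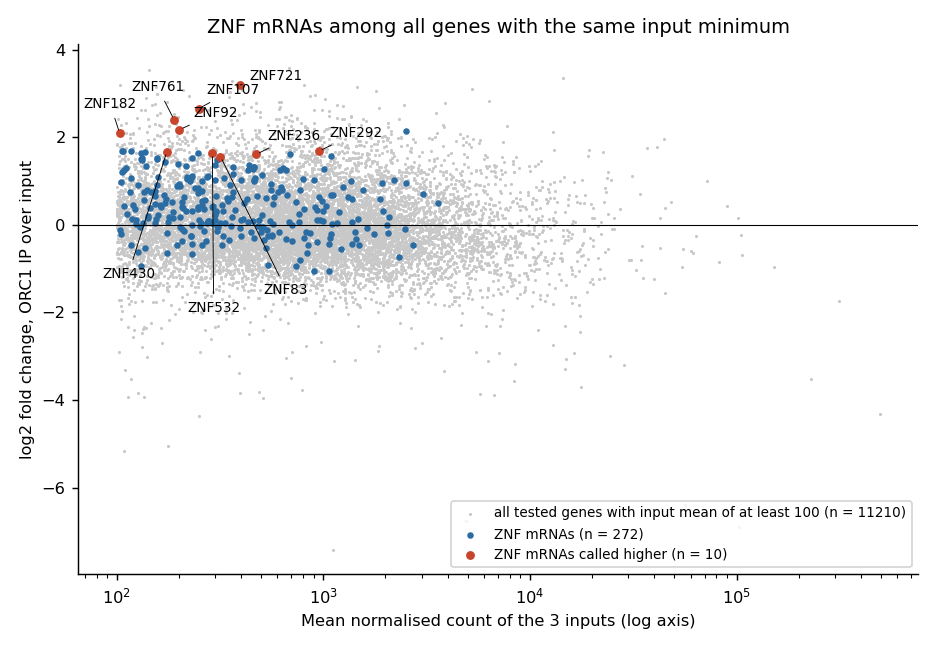
Log2 fold change of ORC1 IP over input (vertical axis) against the mean normalised count of the 3 inputs (horizontal log axis) for all 11210 tested genes with an input mean of at least 100 (grey), the 272 ZNF members (blue) and the 10 called higher by limma (red, named). The members reach from -1.06 to 3.19, while the grey genes reach further down, to -7.43.

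The 10 members that rose in ORC1 IP were ZNF721, ZNF107, ZNF761, ZNF92, ZNF182, ZNF292, ZNF430, ZNF532, ZNF236 and ZNF83. ZNF721 (ENSG00000182903, chr4:425815-499156, minus strand), a multi-finger protein of little known function, measured 805, 211 and 174 normalised counts in the 3 inputs and 3521, 1663 and 3905 in the 3 ORC1 IPs, each in the order of RIP replicates 1, 2 and 3, as all values below. Input 1 was the highest input, but every IP was above it. The log2 fold change of 3.19 ± 0.55 (SE, n = 3 against 3; limma adjusted p = 0.0126) was the highest of the family.

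ZNF107 (ENSG00000196247, chr7:64666099-64711577, plus strand), a KRAB protein encoded near the centromere of chromosome 7, measured 435, 183 and 132 in the inputs and 1455, 1183 and 1536 in the IPs, with a log2 fold change of 2.65 ± 0.43 (SE, n = 3 against 3; limma adjusted p = 0.011). ZNF92, another KRAB gene of chromosome 7, measured 389, 153 and 62.0 in the inputs and 692, 745 and 666 in the IPs. The groups did not overlap in either gene, although the inputs of ZNF92 differed more from each other than its IPs, and its log2 fold change was 2.17 ± 0.54 (SE, n = 3 against 3; limma adjusted p = 0.0478).

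ZNF761 (ENSG00000160336, chr19:53431984-53461862, plus strand), a KRAB gene of the long arm of chromosome 19, measured 316, 142 and 113 in the inputs and 935, 906 and 874 in the IPs. The 3 IPs lay close together, and the log2 fold change was 2.39 ± 0.41 (SE, n = 3 against 3; limma adjusted p = 0.0121). ZNF83 of the same neighbourhood measured 396, 301 and 259 in the inputs and 763, 1230 and 839 in the IPs. Both were higher in every IP than in any input, ZNF83 by 1.56 ± 0.35 on the log2 scale (SE, n = 3 against 3; limma adjusted p = 0.0352). ZNF430, a KRAB gene of the short arm of chromosome 19, measured 225, 173 and 128 in the inputs and 679, 363 and 657 in the IPs, a log2 fold change of 1.67 ± 0.39 (SE, n = 3 against 3; limma adjusted p = 0.0389).

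The other 4 were ZNF182, a KRAB gene of the X chromosome, and 3 large proteins without the KRAB pattern. ZNF182 measured 188, 64.6 and 58.5 in the inputs and 312, 405 and 443 in the IPs, a log2 fold change of 2.09 ± 0.47 (SE, n = 3 against 3; limma adjusted p = 0.0339). It stood just inside the input minimum, with a mean of 104. ZNF292, a very large transcription factor mutated in several tumour types, measured 1372, 942 and 544 in the inputs and 2210, 2686 and 3894 in the IPs. Its log2 fold change was 1.68 ± 0.42 (SE, n = 3 against 3), with a limma adjusted p of 0.0494. Its call was lost in 13 of 19 alternatives. The limma adjusted p was 0.0509 with a pseudocount of 0.5 and 0.0669 with the replicate block. With the correction for GC content and length it was 0.146, at a log2 fold change of 0.85.

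ZNF532, a partner of ZNF592, ZNF687 and ZMYND8 in a chromatin reader complex, measured 372, 247 and 253 in the inputs and 831, 1271 and 666 in the IPs, a log2 fold change of 1.64 ± 0.37 (SE, n = 3 against 3; limma adjusted p = 0.0344). ZNF236, first described as a gene whose transcript responds to glucose, measured 568, 438 and 417 in the inputs and 1571, 1108 and 1692 in the IPs, a log2 fold change of 1.61 ± 0.34 (SE, n = 3 against 3; limma adjusted p = 0.029). In both genes every IP was above every input. In all 10 called members input 1 was the highest input, which was the case in 138 of the 272 members.

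The number of members called higher rested on single libraries. It was 0 without input 3 or without ORC1 IP 3, 1 without input 2, 5 without ORC1 IP 1, 20 without input 1 and 43 without ORC1 IP 2, where all tested genes called higher numbered 6, 24, 48, 196, 403 and 1965. As shares, 7.35% of members and 2.44% of all tested genes were called higher without input 1, and 15.8% and 11.9% without ORC1 IP 2. With scaling by total count 2 members (0.735%) were called, against 0.527% of all tested genes. With limma without the intensity trend 3 members (1.1%) were called, against 0.866%, and with a correction for transcript length and GC content 3 (1.12%), against 0.735%. With DESeq2 on the recovered reads 32 members (11.8%) were called, against 7.67%.

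**Figure D2:**
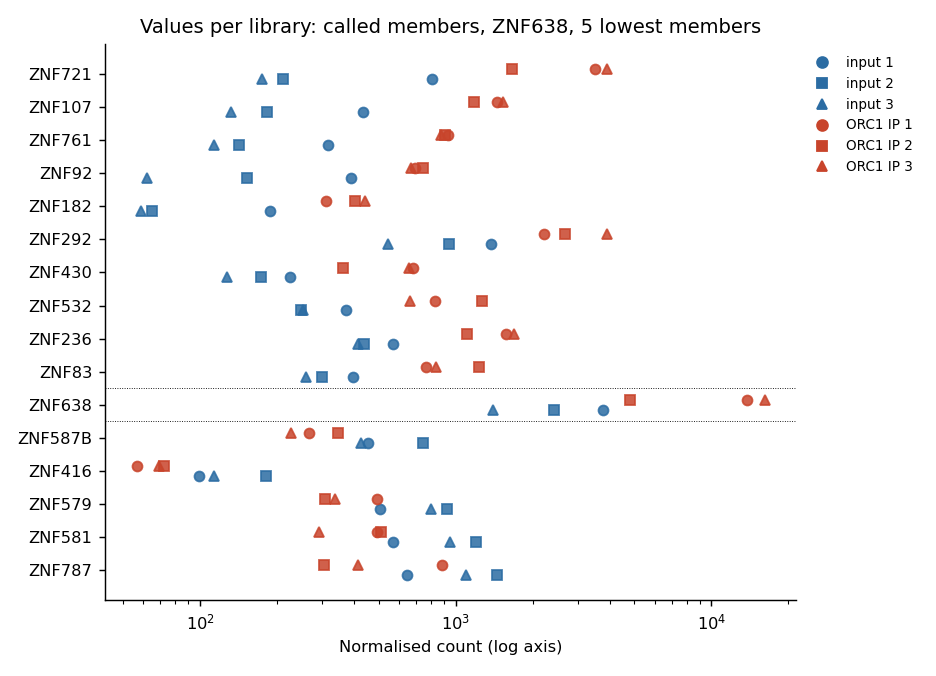
Normalised count (horizontal log axis) of each input (blue) and ORC1 IP (red), with RIP replicates 1, 2 and 3 as circles, squares and triangles, for the 10 members called higher, ZNF638 and the 5 members with the lowest log2 fold change. In the upper 11 rows every ORC1 IP lies to the right of every input, and in the lower 5 rows every ORC1 IP lies to the left of every input except in ZNF787.

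At the other end no member passed the test. ZNF787, ZNF581 and ZNF579, GC-rich genes that lie close together on chromosome 19, had log2 fold changes of -1.06, -1.05 and -0.95 and limma adjusted p-values of 0.194, 0.143 and 0.157. ZNF581 measured 571, 1199 and 947 normalised counts in the inputs and 492, 512 and 291 in the IPs, and ZNF579 measured 504, 925 and 798 in the inputs and 494, 309 and 338 in the IPs. In both the IPs lay under the inputs, by a narrow margin in RIP replicate 1. ZNF787 measured 644, 1447 and 1100 in the inputs and 887, 306 and 416 in the IPs, so that its groups overlapped.

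The KRAB genes ZNF416 and ZNF587B, both from the end of the long arm of chromosome 19, had log2 fold changes of -0.94 and -0.92 (limma adjusted p = 0.215 and 0.165). ZNF416 measured 99.2, 181 and 113 in the inputs and 56.4, 72.0 and 69.3 in the IPs. ZNF587B measured 454, 742 and 426 in the inputs and 267, 346 and 227 in the IPs. Neither gene overlapped between the groups.

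Input levels per kilobase of longest transcript, which allow a comparison between genes, were highest in ZNF460, ZNF581, ZNF768, ZNF664 and ZNF787 with 706, 684, 628, 597 and 548 normalised counts per kilobase. The median over the 269 members with a transcript length was 81.0. None of these 5 was called. ZNF664 measured 4408, 2293 and 2441 normalised counts in the inputs and 2140, 9210 and 5330 in the IPs. Its IPs lay on both sides of the inputs and its log2 fold change was 0.70 ± 0.56 (SE, n = 3 against 3; limma adjusted p = 0.505). Just outside the input minimum lay ZNF22, ZNF169 and ZNF554 with input means of 98.7, 96.6 and 94.4, and just inside it ZNF230, ZNF182 and ZNF597 with 103, 104 and 105.

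The median of the family was positive in each of the 3 RIP replicates, but the replicates ordered the members differently. The median difference of ORC1 IP and input on the log2 scale was 0.26, 0.44 and 0.57 in RIP replicates 1, 2 and 3 (SD of the 3 medians 0.15). Over genes with the same input minimum these medians were -0.01, -0.15 and 0.08. The difference was positive in 181, 165 and 196 of the 272 members, positive in all 3 replicates in 98 and negative in all 3 in 17. Across members, Spearman's rho between the differences of 2 replicates was -0.13 for replicates 1 and 2, 0.25 for 1 and 3 and 0.62 for 2 and 3 (n = 272 genes, which share libraries and are not independent). The same values over 10252 protein-coding genes with the same input minimum were -0.07, 0.61 and 0.34.

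**Figure D3:**
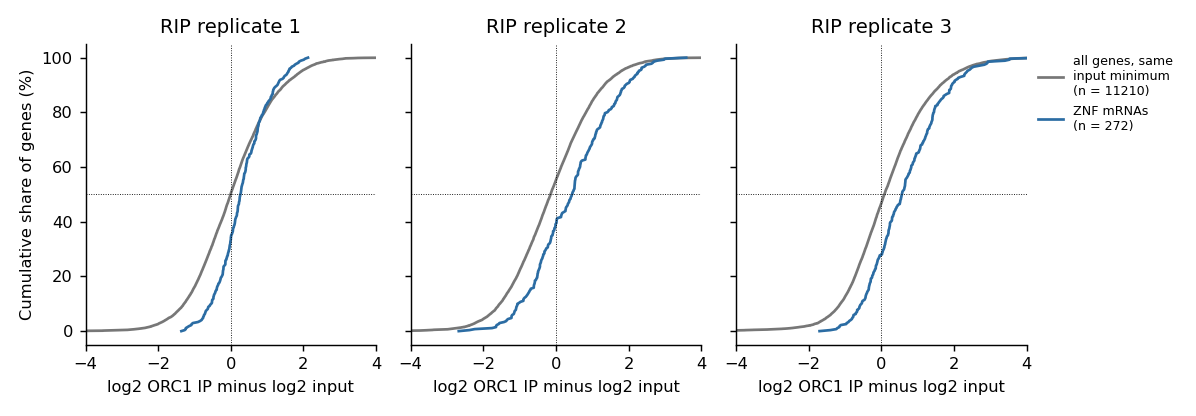
Cumulative share of genes (vertical axis, percent) by the log2 difference of ORC1 IP and input (horizontal axis) in RIP replicates 1, 2 and 3, for the 272 ZNF members (blue) and all 11210 tested genes with the same input minimum (grey). The blue curve crosses 50% to the right of the grey one in each replicate, at 0.26, 0.44 and 0.57.

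The share of all counts that fell on the members was 0.873%, 0.741% and 0.684% in the 3 inputs and 0.769%, 1.38% and 0.873% in the 3 ORC1 IPs (each in replicate order), so the IPs overlapped the inputs and ORC1 IP 2 stood apart. Mitochondrial genes took 6% of counts in ORC1 IP 2, 0.617% and 0.257% in ORC1 IPs 1 and 3 and 1.49% to 3.28% in the inputs, and their part in the member shares was not tested. No member was at 0 in any library. Recovered reads on genes numbered 13703033 to 17248924 in the inputs and 25134156 to 36008733 in the IPs. All 6 epithelial markers examined were present in every library, with summed levels of 17887 to 146124 normalised counts. Of 9 markers of other cell types 3 had a row in the table, with sums of 175 to 824, nearly all from COL1A1.

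By role, the members with known targets or with functions outside the KRAB system were described from 4 gene lists, read beside the 2.27% called higher and the 12.1% with all IPs above all inputs among genes with the same input minimum. Of protein-coding genes with that minimum and transcripts of 6000 bases or more, 5.51% were called higher, and in 22.9% all IPs were above all inputs. Their median log2 fold change was 0.44. Median transcript lengths were 6023 bases in the list of transcription and chromatin regulators and 6322 in that of KRAB proteins. They were 5089.5 for SCAN genes and 4385.5 for roles outside DNA binding. Transcription and chromatin regulators without KRAB had 32 of 36 genes among the members. Of these 30 had positive values, the median log2 fold change was 0.66, 2 (6.25%) were called higher (ZNF292 and ZNF532), none was called lower, and in 13 (40.6%) all IPs were above all inputs. The lowest was ZNF367, a transcription factor gene, at -0.39 (limma adjusted p = 0.569). The complex partners of ZNF532 were not called, with log2 fold changes of 0.30 for ZNF592 and -0.20 for ZNF687 (both chosen after their values were seen).

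Members with roles outside DNA binding comprised 12 of 13 listed genes, with 11 positive values, a median of 0.87 and no call, and in 3 (25%) all IPs were above all inputs. ZNF638, a nuclear protein that recruits the HUSH silencing complex to unintegrated retroviral DNA, measured 3764, 2424 and 1397 normalised counts in the inputs and 13829, 4796 and 16197 in the IPs. All IPs were above all inputs and the log2 fold change was 2.13 ± 0.58 (SE, n = 3 against 3), with a limma adjusted p of 0.0599. That p passed the threshold with upper quartile scaling (0.0403), with DESeq2 (0.00123) and without ORC1 IP 2 (0.00122), and was 0.0769 with the replicate block, 0.0995 with the correction for GC content and length, 0.213 without input 2 and 0.387 without input 3. With DESeq2 and without ORC1 IP 2, 7.67% and 11.9% of all tested genes were called higher. The lowest of this list was the nucleolar protein gene ZNF330 at -0.17 (limma adjusted p = 0.84), which turned to 0.15 without ORC1 IP 2. ZNF207, which encodes the spindle protein BuGZ, had a log2 fold change of 0.49, and ZNF598, a ubiquitin ligase that acts on collided ribosomes, 0.54, with overlapping groups in both (chosen after their values were seen).

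KRAB proteins that bind repeats or have a known target comprised 12 of 23 listed genes. All 12 values were positive, with a median of 0.71, none was called, and in 3 (25%) all IPs were above all inputs. The highest was ZNF33A at 1.24 (limma adjusted p = 0.136), and the lowest ZNF483 at 0.08 (limma adjusted p = 0.925). ZNF483 turned to -0.13 with scaling by total count, -0.83 with the correction for GC content and length, -0.09 without input 3 and -0.08 without ORC1 IP 1. SCAN domain genes had 16 of 18 listed genes among the members, 10 with positive values, a median of 0.06 and no call, and 5 (31.2%) with all IPs above all inputs. They ranged from ZNF444, a transcription factor, at -0.26 to ZNF445, which maintains imprinted methylation, at 0.85, with limma adjusted p-values of 0.718 and 0.219. ZNF445 measured 1536, 1119 and 1078 in the inputs and 2284, 1590 and 3001 in the IPs, so that its groups did not overlap. Its limma adjusted p passed the threshold without ORC1 IP 2 (0.0359), and over the other alternatives lay between 0.149 and 0.951. The highest came with the correction for GC content and length, where its log2 fold change was 0.04.

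The proteins through which KRAB zinc fingers silence chromatin were read from a list of 30 genes, of which 29 were tested. Of these 1 (3.45%), ATRX, was called higher, against 2.28% of all tested genes, and none lower. Of the 29 values 23 were positive and the median log2 fold change was 0.66. The median difference was 1.06, -0.38 and 0.86 in RIP replicates 1, 2 and 3, with 22, 12 and 25 positive. All IPs were above all inputs in 5 (17.2%) and below in 3 (10.3%), against 12.7% and 13.5% of all tested genes. ATRX, a chromatin remodeller that works with DAXX to deposit histone H3.3, measured 1671, 1098 and 721 normalised counts in the inputs and 6139, 3299 and 10224 in the IPs (log2 fold change 2.43 ± 0.49, SE, n = 3 against 3; limma adjusted p = 0.0239). With the replicate block 2 genes of the list were called, where 2.62% of all tested genes were higher and 1.16% lower. With limma without the trend, the GC and length correction, or without input 2, input 3 or ORC1 IP 3, none was. Without ORC1 IP 2 the number was 13, where 11.9% of all tested genes were called higher and 6.38% lower. With DESeq2 it was 7, where 7.67% were higher and 4.35% lower, and with upper quartile scaling or edgeR 3, where 2.51% and 2.57% were higher.

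TRIM28 itself, the corepressor that binds KRAB domains, measured 24942, 42516 and 37662 in the inputs and 40115, 8836 and 41573 in the IPs. Its groups overlapped, ORC1 IP 2 being the lowest of the 6 libraries, and the log2 fold change was -0.48 ± 0.93 (SE, n = 3 against 3; limma adjusted p = 0.811). SETDB1, the H3K9 methyltransferase it recruits, had a log2 fold change of 0.66 (limma adjusted p = 0.513), and MPHOSPH8, a subunit of HUSH, one of 1.97 (limma adjusted p = 0.0545). The HP1 genes CBX1, CBX3 and CBX5 had values of -0.38, 1.14 and 0.18, none called. These genes were chosen after their values were seen, except ATRX.

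Features of the genes that the choice of members did not use were then compared. A KRAB pattern in the longest coding sequence was found in 125 of the 269 members matched to GENCODE. Their median log2 fold change was 0.52, against 0.29 in the 144 without it, and 5 of each group were called (4% and 3.47%). These medians were 0.19 and 0.13 with the correction for GC content and length, 0.31 and 0.07 with scaling by total count, and 0.63 and 0.18 without ORC1 IP 1, so that the difference between the groups was small after the correction. In RIP replicate 1 the order was the opposite, with 0.13 for members with the pattern and 0.37 for those without it. Replicates 2 and 3 gave 0.60 and 0.79 with the pattern and 0.08 and 0.38 without it. All IPs were above all inputs in 32% of the members with the pattern and 24.3% of those without it, and below in 7.2% and 2.08%. Over genes with the same input minimum these shares were 12.1% above and 15.6% below.

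At least 1 C2H2 finger pattern was found in 261 members, with a median of 10 fingers over the 269 and up to 36. Members with 13 or more fingers (n = 79) had a median log2 fold change of 0.58 and held 7 of the 10 called members. This was 8.86% of the class, against 2.27% of genes with the same input minimum called higher. Members with 6 to 12 (n = 122) had a median of 0.23 and 3 called members (2.46%). Members with 1 to 5 (n = 60) had a median of 0.49 and none called. With the correction for GC content and length these medians were 0.22, 0.09 and 0.32, and with scaling by total count 0.36, 0.01 and 0.27. The relation to the number of fingers was thus not in 1 direction, and Spearman's rho was 0.14 (n = 269 genes). With the log2 difference in RIP replicates 1, 2 and 3 rho was -0.02, 0.10 and 0.21.

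GC content of the longest transcript separated the members more. The 52 members under 40% GC had a median log2 fold change of 1.04, the 127 from 40% to 50% one of 0.51 and the 90 at 50% or more one of 0.04. With the correction for GC content and length these were 0.57, 0.19 and 0.01, and with scaling by total count 0.82, 0.30 and -0.17. The last class also turned negative with upper quartile scaling (-0.01), without input 1 (-0.06) and without ORC1 IP 1 (-0.10). Protein-coding genes with the same input minimum had medians of 0.20, 0.08 and -0.16 in these classes (n = 1870, 3825 and 4557), so that the median of the members was the higher in each class. These protein-coding genes include the members. All IPs were above all inputs in 40.4%, 33.1% and 13.3% of members by rising GC class and in 15.6%, 15.4% and 8.67% of these protein-coding genes.

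The replicates differed in this order. In RIP replicate 1 the members' medians by rising GC class were 0.14, 0.19 and 0.49, in replicate 2 they were 1.27, 0.53 and -0.44 and in replicate 3 they were 1.52, 0.68 and -0.09. Spearman's rho of GC content with the log2 difference was 0.21, -0.51 and -0.64 in replicates 1, 2 and 3, and -0.50 with the log2 fold change over all libraries (n = 269 genes). The negative relation was thus seen in the differences of replicates 2 and 3 only. These differences rest on the numbers of inputs 1 and 2, which may be in doubt, as described below. Medians by rising GC class were 0.98, 0.39 and 0.10 without ORC1 IP 2 and 0.99, 0.45 and 0.04 without ORC1 IP 3. Without input 1 they were 1.41, 0.60 and -0.06. Over the 10252 protein-coding genes rho was 0.15, -0.28 and -0.37 in the replicates and -0.21 with the fold change.

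**Figure D4:**
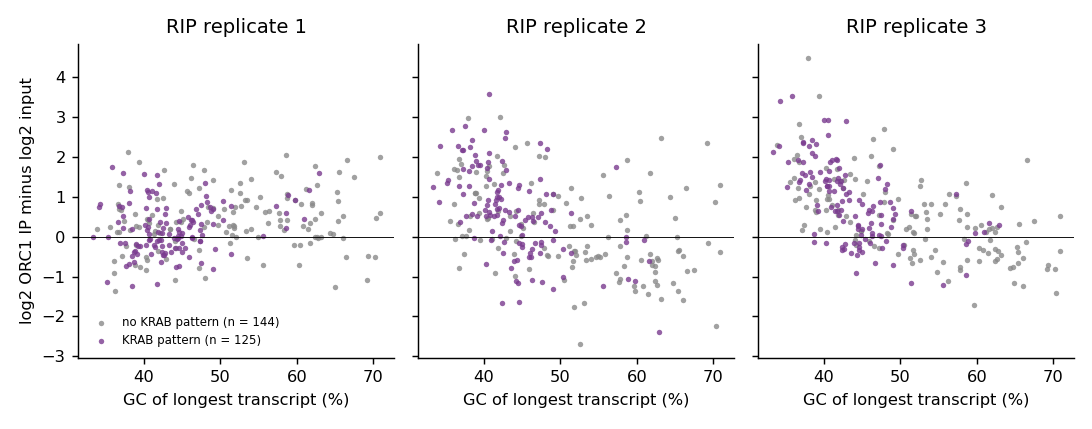
Log2 difference of ORC1 IP and input (vertical axis) against GC content of the longest transcript (horizontal axis, percent) for the 269 members with annotation in RIP replicates 1, 2 and 3, with the 125 members that hold a KRAB pattern in purple and the other 144 in grey. The cloud rises slightly with GC in replicate 1 (rho 0.21) and falls with GC in replicates 2 and 3 (rho -0.51 and -0.64).

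Members with longer transcripts had higher fold changes, with a lower correlation than over protein-coding genes. Members under 3000 bases had a median log2 fold change of 0.10, those from 3000 to 6000 bases 0.34 and those of 6000 or more 0.76. Protein-coding genes with the same input minimum had -0.40, 0.02 and 0.44. Spearman's rho with length was 0.26 over members (n = 269) and 0.44 over protein-coding genes (n = 10252). In RIP replicates 1, 2 and 3 it was -0.02, 0.16 and 0.39 over members and 0.27, 0.17 and 0.53 over protein-coding genes, so that the members stood lower in replicates 1 and 3 and about level in replicate 2. The members' medians by rising length class were 0.22, 0.20 and 0.10 with the correction of every library for transcript length and GC content, and -0.11, 0.13 and 0.54 with scaling by total count. Over all members, the corrected median was 0.18 and that of all genes -0.07, with 59.9% of members positive.

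The linker between fingers gave the family a shared sequence. Over the 1926 pairs of adjacent fingers in the members, the commonest 14 bases after the last histidine codon were ACTGGAGAGAAACC, found in 281 pairs. These bases encode the start of the conserved TGEKP linker. The sense strand of the longest transcript was the only strand searched. On it these bases occurred in 82 of 269 members (30.5%) and in 0.903% of the 16062 tested genes with annotation. The motif was picked from the members, which are among those tested genes, so its higher share in the members follows from the choice. The linker was shown by the finger of ZNF721 above, in which it follows the second histidine codon. The 82 members with the motif had a median log2 fold change of 0.76, and 7 of these 82 were called higher. Of genes with the same input minimum 2.27% were called higher. In 43.9% of the members with the motif all IPs were above all inputs. The 187 without the motif had a median of 0.18, and in 20.9% all IPs were above all inputs, where that share of genes with the same input minimum was 12.1%. The medians were 0.44 and 0.04 with the correction for GC content and length, 0.55 and -0.04 with scaling by total count, and for those without the motif 0.28 without ORC1 IP 2. Spearman's rho of the number of motif matches with the log2 difference was -0.03, 0.36 and 0.44 in RIP replicates 1, 2 and 3 (n = 269 genes).

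The tandem repeat GAAGAAGAA, searched in the same way, occurred in 31 members (11.5%), against 12.9% of tested genes with annotation and 14.9% of protein-coding genes with the same input minimum. Members with it had a median log2 fold change of 0.63 and members without it 0.34 (0.18 each with the correction for GC content and length), and the share with all IPs above all inputs was 29% and 27.7%. Of the called members only ZNF292 held it. Neither motif contains the other, and a match describes the letters of a transcript, not a binding site.

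The members lay on 21 chromosomes, 100 of them on chromosome 19. Chromosome 19 members had a median log2 fold change of 0.30 and the 169 on other chromosomes 0.44, which were 0.05 and 0.22 with the correction for GC content and length and 0.08 and 0.22 with scaling by total count. All IPs were below all inputs in 10 members of chromosome 19 (10%) and in 2 of the others (1.18%). Over genes with the same input minimum the share below was 15.6%. All IPs were above all inputs in 27% and 28.4%, against 12.1% of genes with the same input minimum. Neighbouring members of chromosome 19 less than 1 Mb apart formed 13 runs, and 4 members stood alone. Values of 4 runs follow, chosen after their values were seen.

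The run from ZNF175 to ZNF761 (chr19:51571283-53461862) held 18 members, 17 of them with the KRAB pattern, and all 18 had positive log2 fold changes, with a median of 1.06 and a median GC content of 41.0%. ZNF761 and ZNF83 were called there. In RIP replicate 1 only 9 of the 18 were positive, with a median of 0.01, whereas all 18 were in replicates 2 and 3, with medians of 1.28 and 1.55. The median was 0.84 with scaling by total count, with 18 positive values, and 0.68 with the GC and length correction, with 15.

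The run from ZNF430 to ZNF100 (chr19:21020634-21767579) held 5 members with a median GC content of 37.2%, ZNF430, ZNF714, ZNF431, ZNF708 and ZNF100. In all 5 every IP was above every input, the log2 fold changes lay between 1.30 and 1.68, and ZNF430 was called. With the correction their median was 0.85. ZNF708, chosen after its values were seen, was not called, with 185, 74.1 and 62.0 normalised counts in the inputs and 264, 336 and 326 in the IPs (limma adjusted p = 0.058).

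The run from ZNF628 to ZNF444 (chr19:55476617-56160893) held 9 members with a median GC content of 64.9%, of which 2 had positive log2 fold changes, and a median of -0.62. That median was -0.41 with the correction and -0.38 without ORC1 IP 1. ZNF579, ZNF581 and ZNF787, whose fingers are printed above, lie in it, but so does ZNF865 at 1.28 (limma adjusted p = 0.0898, chosen after its value was seen). The run from ZNF264 to ZNF446 (chr19:57191500-58481230) held 23 members with a median GC content of 44.9%, of which 8 were positive, and a median of -0.06. With scaling by total count and with the correction its median was -0.28 each time, and it lay between -0.33 (without ORC1 IP 1) and -0.01 (without input 2) when a library was left out. The runs with a median GC content of 41.0% and 44.9% thus had medians of 1.06 and -0.06.

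**Figure D5:**
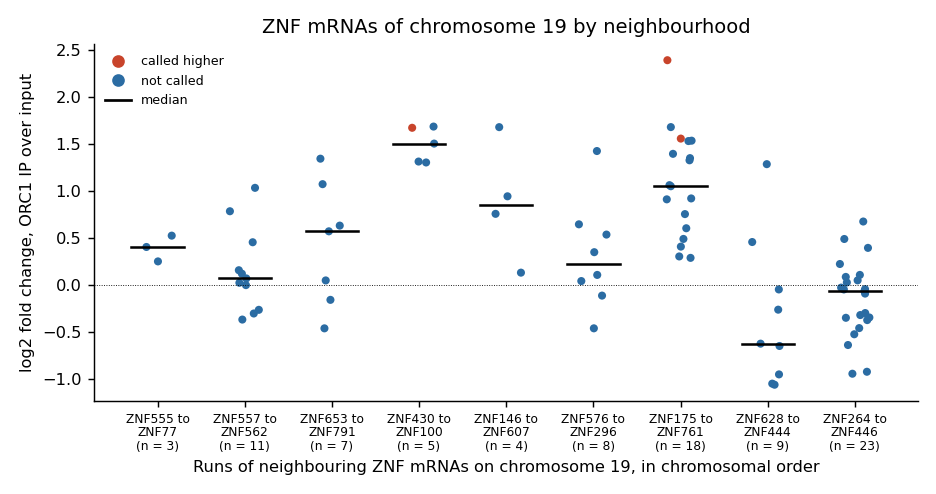
Log2 fold change of ORC1 IP over input (vertical axis) for the members in the 9 chromosome 19 runs of at least 3 members, in chromosomal order, each point being a gene (red if called higher), with a black bar for the median. The runs ZNF430 to ZNF100 and ZNF175 to ZNF761 lie above 0 throughout, as do the smaller runs ZNF555 to ZNF77 and ZNF146 to ZNF607. The medians of ZNF628 to ZNF444 and ZNF264 to ZNF446 are -0.62 and -0.06.

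Members share sequence with each other and with other genes. In 33 of the 269 members at least 10% of the 50-base stretches of the longest transcript also occurred in a transcript of another gene, among the called members in ZNF761 and ZNF532, and the treatment of reads that match several genes is not given in the sources used. Leaving those 33 out gave 236 members, 8 called higher (3.39%, against 2.28% of all tested genes), a median of 0.43 and 75.4% positive values. A gene on the opposite strand overlapped 156 members and 9 of the 10 called, ZNF92 being the exception. The sources used do not say whether the counting was by strand, so reads from such partners cannot be told apart.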

How the data were processed

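RNA of 3 input and 3 ORC1 IP libraries from nuclei of HCT116 cells was compared. According to the methods of the study and the submitters' processing notes, the authors used Trimmomatic for trimming, STAR for alignment to hg19 (GRCh37), featureCounts for read counts per gene and DESeq2 for the comparison with input. The deposited value per library is a signal, the read count divided by 1 size factor. Every value was a whole multiple of what 1 read is worth within 0.001 (100% of values), so whole reads were recovered. The deposited table also holds the authors' log2 fold changes with standard errors, a test score, and p-values, none of which were used.

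The 16513 genes whose mean over the 6 libraries was 10 or more were tested on log2(normalised count + 1) with limma 3.58.1 (intensity trend, 3 against 3, two-sided, no block) in R 4.3.3, with Benjamini-Hochberg adjustment and a threshold of 0.05. This scale understates changes of low genes. On the recovered reads, edgeR 4.0.16 (quasi-likelihood) called 12 members higher (4.41%, against 2.57% of all tested genes). DESeq2 1.42.0 called 32 (11.8%, against 7.67%), where limma called 10 (3.68%, against 2.28%). The limma and edgeR fits were also run on simulated counts. These held planted changes well above the family median and no library bias by GC content or length, so they do not check the calls made here.

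The members, role lists and tests were chosen with earlier results of these data known. Named members were those past the threshold, the 5 highest and 5 lowest fold changes, the 5 highest inputs per kilobase, and the highest and lowest of each list. Gene models of GENCODE v44 (GRCh38) were joined by Ensembl identifier to 269 of 272 members (16062 of the tested genes, 97.3%), with no hg19 annotation used here. A finger was the pattern C-X(2-4)-C-X(12)-H-X(3-5)-H in the translated longest coding sequence, and KRAB a short sequence pattern of that domain.

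The labels assign each input and IP to a numbered RIP replicate, which pairs them. As a check, the deviations from the group mean of an input and the IP of the same number correlated at -0.32, -0.24 and 0.22 across genes, so the numbers of inputs 1 and 2 may be in doubt. Inputs were not set against IPs of another number, so crossed labels were not tested. Values per replicate rest on the replicate numbers, the limma test without block does not. Depth covers counting error only and was 13703033 reads at the lowest. Alternatives were other pseudocounts, filters, scalings and tests, the replicate block, a correction for GC content and length (splines per library), leaving out each library, and other choices of members. The choice by shared sequence, the scalings and left-out libraries for counts of non-overlapping groups, and the alternatives for classes of members, were added after seeing the data.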

Additional observations from a re-analysis of the deposited data

How the results depend on the processing

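The number of members called higher, 10 by limma, was 2 with scaling by total count, 3 without the intensity trend, 3 with the correction for GC content and length and 32 with DESeq2, and 0 to 43 when a library was left out. All tested genes called higher moved too, from 376 to 87, 143, 118 and 1266 in these settings and to 6 to 1965 when a library was left out. Of the 10 called, 2, 3 and 3 remained called with total count, no trend and the correction, and 0 to 10 when a library was left out. No member was called lower, apart from 0 to 1 when a library was left out (ZNF581 without ORC1 IP 2). The median log2 fold change of 0.40 was 0.19 with total count, where that of all genes shifted to -0.19, and 0.18 with the correction, and lay between 0.29 and 0.45 when a library was left out. The cause of these changes was not tested. Choosing members by an input minimum of 50 or 200, or by little shared sequence, gave medians of 0.43, 0.32 and 0.43. The numbers called were 11 (3.41%), 7 (3.41%) and 8 (3.39%), against 2.28% of all tested genes. A minimum on the mean over all libraries or over the IPs gave 0.44 and 0.49, with 13 called each time (4.48% and 4.3%, against 2.28%). Such a minimum admits genes through high IP values, so a higher median follows in part from the choice itself.

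With the replicate block in the model, limma called 10 members (3.68%, against 2.62% of all tested genes) and edgeR 11 (4.04%, against 2.58%). The median was 0.40 and 0.41. The block ended the call of ZNF292 (adjusted p = 0.0669 in limma and 0.0664 in edgeR) and changed no other call of a named member in limma. Partner genes called, 1 in limma, numbered 2 with the block in limma and 2 with it in edgeR, 2 without a filter, 2 with TMM, 3 with upper quartile scaling, 3 with edgeR, 7 with DESeq2, 0 without the trend, 0 with the correction and 0 to 13 when a library was left out. In the settings with 2 calls, 1.73% to 2.62% of all tested genes were called higher and 1.11% to 1.37% lower.

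Members with every IP above every input numbered 75, 28 with total count, and 77 to 118 when a library was left out, where the share of genes with the same input minimum went from 12.1% to 8.19% and to 13.3% to 28.7%. Those with every IP below every input numbered 12, 18 with total count, and 12 to 31 when a library was left out, against 15.6%, 17.9% and 17% to 24.4%. With total count, positive values among members with and without the KRAB pattern fell from 96 to 83 and from 102 to 75. Among the 26 named genes, log2 fold changes changed sign for ZNF483 (0.08, to -0.13 with total count, -0.83 with the correction and -0.09 or -0.08 without input 3 or ORC1 IP 1) and ZNF330 (-0.17, to 0.15 without ORC1 IP 2), whose values ranged from -0.09 to 0.25 and from -0.34 to 0.15 when a library was left out. Of the values of these 26 genes under alternatives, 415 kept direction and call, 69 lost the call, 5 gained it and 5 changed sign. ZNF107 kept its call in 17 of 19 alternatives and ZNF292 in 6.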

Other observations

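Zinc finger genes outside the members were read on the same fit. Of 94 tested ZNF genes under the input minimum 3 were called higher and none lower by limma, with a median log2 fold change of 0.59, and all IPs were above all inputs in 26.6% and below in 4.26%. Over all tested genes 2.28% were called higher, and 12.7% stood above and 13.5% below. Median normalised counts of the 94 ZNF genes were low, 54.1 for the inputs. They were selected on low inputs, and those with very low inputs entered the test only through higher IPs. Both work towards a higher ORC1 IP relative to input, and other genes under the input minimum were not compared. The median difference of the 94 genes was 0.09, 0.94 and 0.59 in RIP replicates 1, 2 and 3. Among genes with an input mean of at least 100, the CCCH zinc finger genes named ZC3H, several of which act in RNA decay and processing, had a median of 0.82 over 17 genes with 2 called higher (11.8%, against 2.27% of genes with that input minimum), and in 35.3% all IPs were above all inputs (against 12.1%). The 7 PRDM genes, which pair fingers with a methyltransferase-like domain, had a median of 0.60 with 1 called (14.3%). The 10 ZFP genes had a median of 0.59, the 36 ZBTB genes 0.25, the 10 ZSCAN genes 0.19, the 6 ZKSCAN genes 0.44 and the 18 KLF and SP genes 0.08, with none called in any of these families. These families differ in size and overlap in the kind of finger they carry, and the differences between them were not tested.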
